A study of Mus musculus with 18 samples.

Results

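The negative feedback regulators of p53 are described here as 7 genes, Mdm2, Mdm4, Ccng1, Ppm1d, Rchy1, Cop1 and Usp7, out of 18193 genes on the array. They were chosen by their known role, and every probe set annotated to 1 of them was used. A probe set is a group of short probes on the array that together read a stretch of a transcript. The 7 genes had 21 of the 45037 probe sets that are not controls: 3 for Mdm2, 4 for Mdm4, 3 for Ccng1, 2 for Ppm1d, 1 each for Rchy1 and Cop1, and 7 for Usp7.

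Gene expression in TKO, a mouse line that the labels describe as telomere dysfunctional, was read on 18 Affymetrix arrays. The p53ER cells expressed a fusion of p53 to an estrogen receptor, which stays inactive until 4-hydroxytamoxifen (4-OHT) binds it. They were collected after 4 h with 100 nM 4-OHT, after 4 h with vehicle and at 0 h. The uninfected TKO cells carried no fusion and were collected after 4 h with 100 nM 4-OHT, after 4 h with vehicle and at 0 h, and all 6 groups had 3 arrays. The study chose the 4 h time to list possible direct targets of p53. The labels name neither the promoter driving p53ER nor the vehicle, and do not say whether the p53ER cells were a clone or a pool. A control infected without p53ER is not among the groups, so effects of the fusion and of infection cannot be told apart. Replicates are not described as separate cultures, and the p-values therefore reflect array-to-array spread that may be technical.

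The protein p53 is a transcription factor that halts division or triggers death in damaged cells, and cells keep it low through loops in which p53 switches on its own inhibitors. Mdm2, a ubiquitin ligase, marks p53 for destruction and is itself a classic p53 target, and Mdm4, its relative, binds p53 and masks its activation domain. Ccng1 encodes cyclin G1, a p53 target that brings a phosphatase to Mdm2 and so activates it, and Ppm1d encodes the phosphatase Wip1, which removes damage-induced phosphates from p53 and its kinases. Rchy1 (Pirh2) and Cop1 are further ubiquitin ligases for p53, and Usp7 is a protease that takes ubiquitin off Mdm2, Mdm4 and p53.

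The arrays differed in overall brightness and in ways the groups did not explain. Before scaling, the 2% trimmed mean of an array lay between 47.2 and 147, and each array was scaled to a common mean of 82.1. The first principal component held 19.0% of the variance and set 3 arrays apart, namely replicate 1 of p53ER vehicle, replicate 3 of p53ER 0 h and replicate 2 of uninfected 0 h. The second component (15.6%) divided the arrays numbered 3 from those numbered 1 and 2 in all groups. The fusion was read through the estrogen receptor gene Esr1. Its brightest probe set had scaled signals of 166, 158 and 673 in p53ER cells with 4-OHT, 225, 120.1 and 1404 with vehicle and 167, 201 and 771 at 0 h, against 3.83 to 24.7 in the 9 uninfected arrays. All 9 p53ER arrays were above all uninfected ones, and replicate 3 was the highest in each p53ER group. The labels give no tissue. Of 8 mesenchymal markers, such as collagens and fibronectin, none lay in the dimmest 40% of probe sets, while 2 of 6 epithelial, 1 of 4 blood and 1 of 3 endothelial markers did. Some of the latter kinds were brighter than the mesenchymal Lum (percentile 66.5), namely Epcam (79.8), Csf1r (74.7) and Kdr (70.15). The other mesenchymal markers stood at percentile 87.4 or higher. These markers do not settle the tissue.

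The stretch around the transcription start is shown for Mdm2 and Ccng1, because these were the 2 members that passed the test. RefSeq promoter windows (build GRCm38.p6, 250 bases before the start to 50 after it) were found for all 7 genes, 9 windows in all. They were searched for the p53 decamer consensus, the 10-base motif that p53 binds as a pair. Its consensus reads the same on both strands, and no other motif was searched. Capitals mark an exact match and, in Ccng1, also the neighbouring 10 bases, which together with it form a pair with 1 mismatch in 20 bases and no gap. The Mdm2 window lies at chr10:117710709-117711008 on the minus strand and the Ccng1 window at chr11:40755237-40755536 on the minus strand.
Mdm2: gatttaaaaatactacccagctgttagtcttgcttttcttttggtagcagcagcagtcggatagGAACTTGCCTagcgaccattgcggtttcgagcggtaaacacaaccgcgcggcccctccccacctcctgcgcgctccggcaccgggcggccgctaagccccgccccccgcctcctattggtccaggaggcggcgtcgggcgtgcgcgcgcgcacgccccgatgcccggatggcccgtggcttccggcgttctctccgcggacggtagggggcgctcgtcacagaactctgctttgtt
Ccng1: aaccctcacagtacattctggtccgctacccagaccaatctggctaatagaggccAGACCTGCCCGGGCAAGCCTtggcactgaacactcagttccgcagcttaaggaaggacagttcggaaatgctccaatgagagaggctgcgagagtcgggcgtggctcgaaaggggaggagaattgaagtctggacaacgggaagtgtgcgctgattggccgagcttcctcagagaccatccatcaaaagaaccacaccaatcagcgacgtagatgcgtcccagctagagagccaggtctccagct

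Both windows held 1 exact match, GAACTTGCCT starting 186 bases before the start of Mdm2 and GGGCAAGCCT starting 185 bases before the start of Ccng1. The windows of Ppm1d (chr11:85311004-85311303, plus strand) and Rchy1 (chr5:91962507-91962806, minus strand) also held 1 each, GAGCTTGCTC at 132 bases and GAGCTTGTCT at 90 bases before the start. The other windows, 2 for Mdm4 and 1 each for Rchy1, Cop1 and Usp7, held none. Of 32851 promoter windows of the same length, 8.36% held an exact match. A pair with at most 1 mismatch, as in Ccng1, was in 1.09% of them, but that pair rule was chosen after the windows had been read. The best-known p53 elements of Mdm2 lie in its first intron, outside this window. A match is a description of letters and does not show binding.

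In p53ER cells Mdm2 was 7.57-fold and 7.72-fold higher after 4 h with 4-OHT than with vehicle on its bright probe sets, and Ccng1 was 3.42-fold higher. The other 5 genes did not pass the test. Of the 21 probe sets 3 passed, all higher: 2 for Mdm2 and 1 for Ccng1. Over the whole array 4 probe sets passed (0.00888% of those tested), all higher, and the remaining 1 was Pmaip1, which encodes the death-promoting protein Noxa. Mdm2 and Ccng1 probe sets ranked 1st, 2nd and 4th by p-value among the 45037. An unadjusted p under 0.05 was reached by 6 of the 21 and by 1844 of all. The test was limma over all 18 arrays, two-sided, with Benjamini-Hochberg adjustment over all probe sets and a threshold of 0.05. The main fit had no block. With the replicate number as a block 11 probe sets passed on the array, and the same 3 of the 21. Their limma adjusted p was then 2.14e-05 for both Mdm2 probe sets and 0.00854 for Ccng1. On bulk arrays, more cells expressing a gene and more RNA per cell cannot be told apart.

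Mdm2 was read by 3 probe sets, given here first as scaled signals. On 1423605_a_at it had signals of 1179, 1086 and 2446 in p53ER cells with 4-OHT, against 105, 153 and 422 with vehicle. At 0 h the p53ER cells had 170.3, 179.6 and 228. All 3 arrays with 4-OHT lay well above every other array of the series, and replicate 3 was the highest with 4-OHT and with vehicle. On the log2 scale the group means were 10.52 ± 0.64 with 4-OHT and 7.60 ± 1.02 with vehicle (SD, n = 3 each). The log2 change was +2.92 (SE 0.40, 95% interval +2.08 to +3.76), which is 7.57-fold (limma adjusted p = 0.0191).

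On 1427718_a_at Mdm2 had signals of 1167, 1024 and 1948 in p53ER cells with 4-OHT, against 113, 149.99 and 281 with vehicle. At 0 h they were 162, 165 and 134. The log2 change of 4-OHT over vehicle was +2.95 (SE 0.28, limma adjusted p = 5.04e-05), 7.72-fold, close to that of the first probe set. The remaining Mdm2 probe set, 1457929_at, gave signals of 19.6, 18.8 and 18.6 with 4-OHT against 19.0, 16.1 and 23.4 with vehicle. It lay in the dimmest 40% of the array and differed by -0.02 (SE 0.52). The call of 1423605_a_at was lost without p53ER vehicle replicate 2 (limma adjusted p = 0.128) or 4-OHT replicate 3 (0.0991), and without the 3 arrays that lay apart (log2 change +2.50, adjusted p = 0.133). It was lost too with a variance prior without trend and robustness (0.111) and with only the 6 arrays of the groups compared in the fit (1.000). That of 1427718_a_at was lost with only those arrays in the fit (limma adjusted p = 0.238) and held each time 1 p53ER array with 4-OHT or vehicle was left out. Its changes then ran from +2.67 to +3.31.

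Ccng1 rose on 1 of its 3 probe sets by the test, and all 3 gave similar sizes. On 1450016_at its signals were 601, 573 and 969 in p53ER cells with 4-OHT, against 132, 173 and 348 with vehicle, and 176, 185 and 187 at 0 h. The groups did not overlap, and replicate 3 was again highest with 4-OHT and with vehicle. Group means were 9.45 ± 0.42 with 4-OHT and 7.67 ± 0.71 with vehicle in log2 units (SD, n = 3 each). The log2 change was +1.77 (SE 0.27, 95% interval +1.21 to +2.34), which is 3.42-fold (limma adjusted p = 0.0249).

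On 1420827_a_at, the brightest probe set of Ccng1, the signals were 695, 789.9 and 1879 in p53ER cells with 4-OHT, against 70.4, 273 and 620.4 with vehicle. At 0 h they were 272, 264 and 353. The lowest array with vehicle was replicate 1, one of those that lay apart. The log2 change was +2.11 with a wide error (SE 0.58, limma adjusted p = 0.942), and +1.29 without that array. On 1450017_at the signals were 551, 549 and 1167 with 4-OHT, against 82.7, 194 and 384 with vehicle. The difference was +1.92 in log2 units (SE 0.40, limma adjusted p = 0.51), or +1.36 without vehicle replicate 1. The call of 1450016_at was lost without any 1 of p53ER 4-OHT replicates 1, 2 and 3 (limma adjusted p = 0.0883, 0.0612 and 0.33) or vehicle replicates 1 and 2 (0.152 and 0.233). It was lost too with no scaling of the arrays (limma adjusted p = 1.000), with no offset (0.0556), with the other variance prior (0.222), without the 3 arrays that lay apart (0.182) and with only the groups compared (1.000). Its change ran from +1.48 to +2.17 when any 1 array of the 2 groups was left out. Without vehicle replicate 3, 1450017_at passed too (+2.44, adjusted p = 0.0131).

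**Figure D1:**
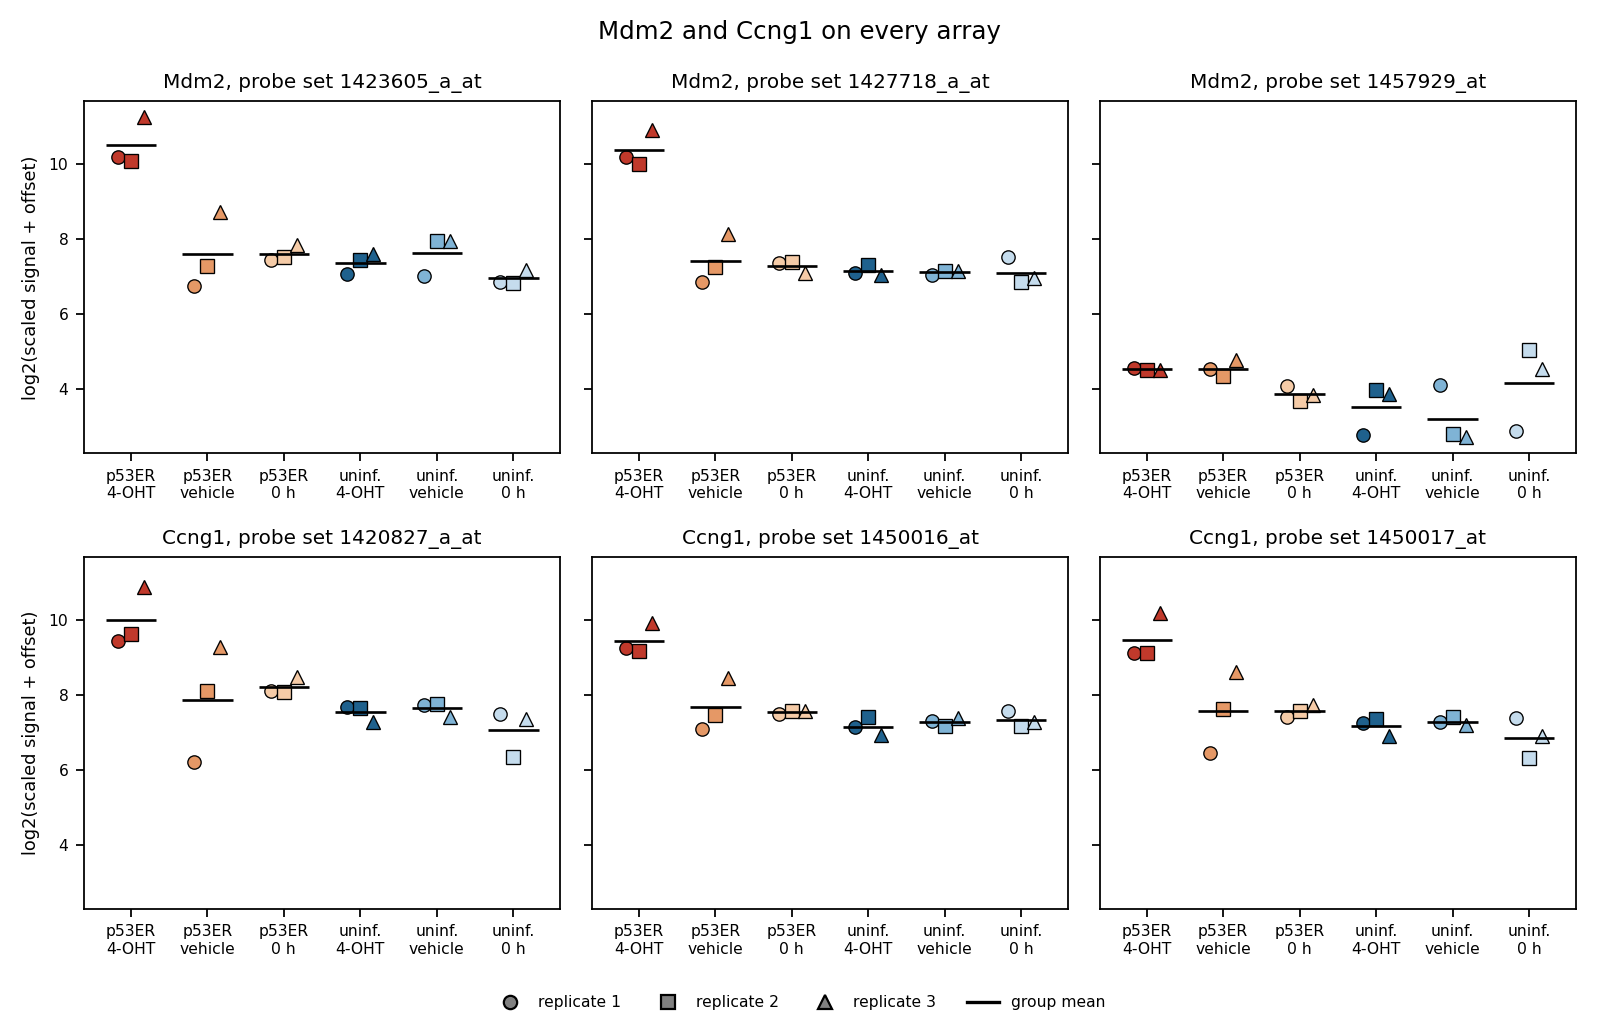
Log2 of the scaled signal plus an offset for the 3 probe sets of Mdm2 (top) and of Ccng1 (bottom) on all 18 arrays, by group, with 1 point per array, its shape giving the replicate number, and a bar for the group mean. The 3 p53ER arrays with 4-OHT stand above all others on 5 of the 6 probe sets, and Mdm2 1457929_at stays between 2.7 and 5.1 everywhere.

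In p53ER cells the 3 arrays with 4-OHT were above the 3 with vehicle on 6 of the 21 probe sets and below them on 0. Over all probe sets the shares were 5.02% above and 3.40% below. The 6 were the 5 bright probe sets of Mdm2 and Ccng1 and 1437118_at of Usp7, and probe sets of 1 gene share their source. The median log2 change over the 21 was +0.17, against +0.03 over all probe sets.

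Matching arrays by replicate number gave a rise in every pair for these 5 probe sets. For Mdm2 the log2 difference between 4-OHT and vehicle was +3.44, +2.79 and +2.52 in replicates 1, 2 and 3 on 1423605_a_at, and +3.33, +2.74 and +2.78 on 1427718_a_at. For Ccng1 it was +2.15, +1.70 and +1.46 on 1450016_at and +3.23, +1.52 and +1.59 on 1420827_a_at. On 1450017_at the differences were +2.68, +1.48 and +1.59. Replicate 1 gave the largest difference on each of them, and its vehicle array was the one with the lowest signals. In replicate 3 both the 4-OHT and the vehicle arrays were high for Mdm2 and Ccng1, and so was Esr1 on its brightest probe set (673 and 1404). On the other Esr1 probe sets replicate 3 was the lowest with 4-OHT (2.59 and 21.2) and not the highest with vehicle (3.61 and 32.0). In uninfected cells replicate 3 was the highest in every group for Mdm2 on 1423605_a_at. With 4-OHT those cells had their lowest array in replicate 3 on the remaining bright probe sets of Mdm2 and Ccng1. The part of the fusion level in the high replicate 3 arrays was not tested.

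**Figure D2:**
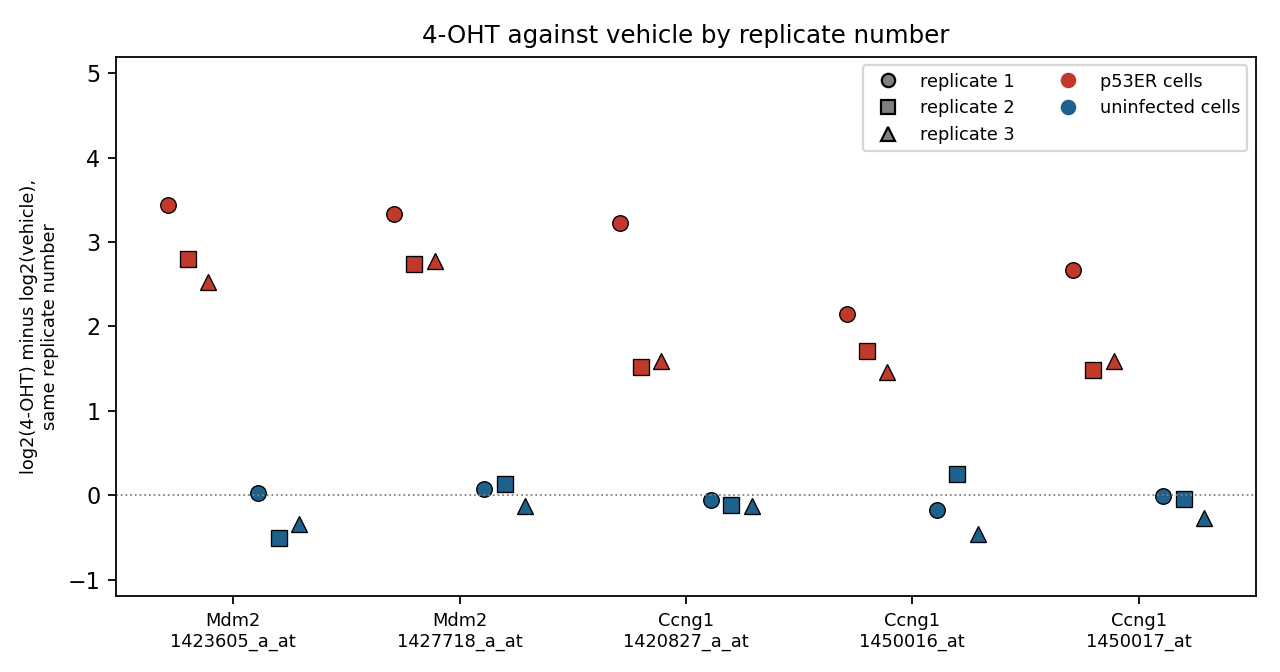
Log2 signal with 4-OHT minus that with vehicle for arrays of the same replicate number (vertical axis), for the bright probe sets of Mdm2 and Ccng1, with p53ER cells in red left of uninfected cells in blue. All p53ER differences lie between 1.46 and 3.44, and the uninfected ones between -0.51 and 0.25.

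Uninfected cells showed no call of any member with 4-OHT. Over the whole array 0 probe sets passed (0% of those tested), with 974 at an unadjusted p under 0.05, of which 0 were among the 21. Mdm2 on 1423605_a_at had signals of 129, 169 and 192 with 4-OHT, against 127, 242 and 244 with vehicle, a log2 change of -0.27 (SE 0.40, 95% interval -1.11 to +0.56). On 1427718_a_at they were 134, 154 and 128 with 4-OHT, against 127, 139.6 and 139.7 with vehicle, a change of +0.03 (SE 0.28). For Ccng1 the 3 changes were -0.10, -0.13 and -0.11. Arrays with and without 4-OHT overlapped on every probe set of Mdm2 and Ccng1. The arrays with 4-OHT were above those with vehicle on 2 of the 21 probe sets, both of Usp7, and below on 0, against 3.83% and 3.07% of all probe sets.

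The difference between the 4-OHT effects in p53ER and uninfected cells was past the threshold for 1 probe set of the array (0.00222% of those tested), which was Mdm2 1427718_a_at. There the effects differed by +2.92 on the log2 scale (SE 0.39, limma adjusted p = 0.0158), p53ER minus uninfected. On 1423605_a_at they differed by +3.19 (SE 0.56, adjusted p = 0.308). For Ccng1 the difference was +1.90 on 1450016_at (SE 0.38, adjusted p = 0.575), +2.21 on 1420827_a_at (SE 0.82) and +2.03 on 1450017_at (SE 0.57). At an unadjusted p under 0.05, 5 of the 21 probe sets passed and 1242 of all. The Mdm2 call was lost without p53ER vehicle replicate 1 or 2, without p53ER 4-OHT replicate 3, and without any 1 of the 6 uninfected arrays with 4-OHT or vehicle. It was lost too with no scaling, with the other variance prior, without the 3 arrays that lay apart and with only the groups compared, which makes 13 of 22 alternatives. Without p53ER vehicle replicate 3, 3 of the 21 passed. The Mdm2 difference stayed between +2.64 and +3.28 over all 22 alternatives.

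**Figure D3:**
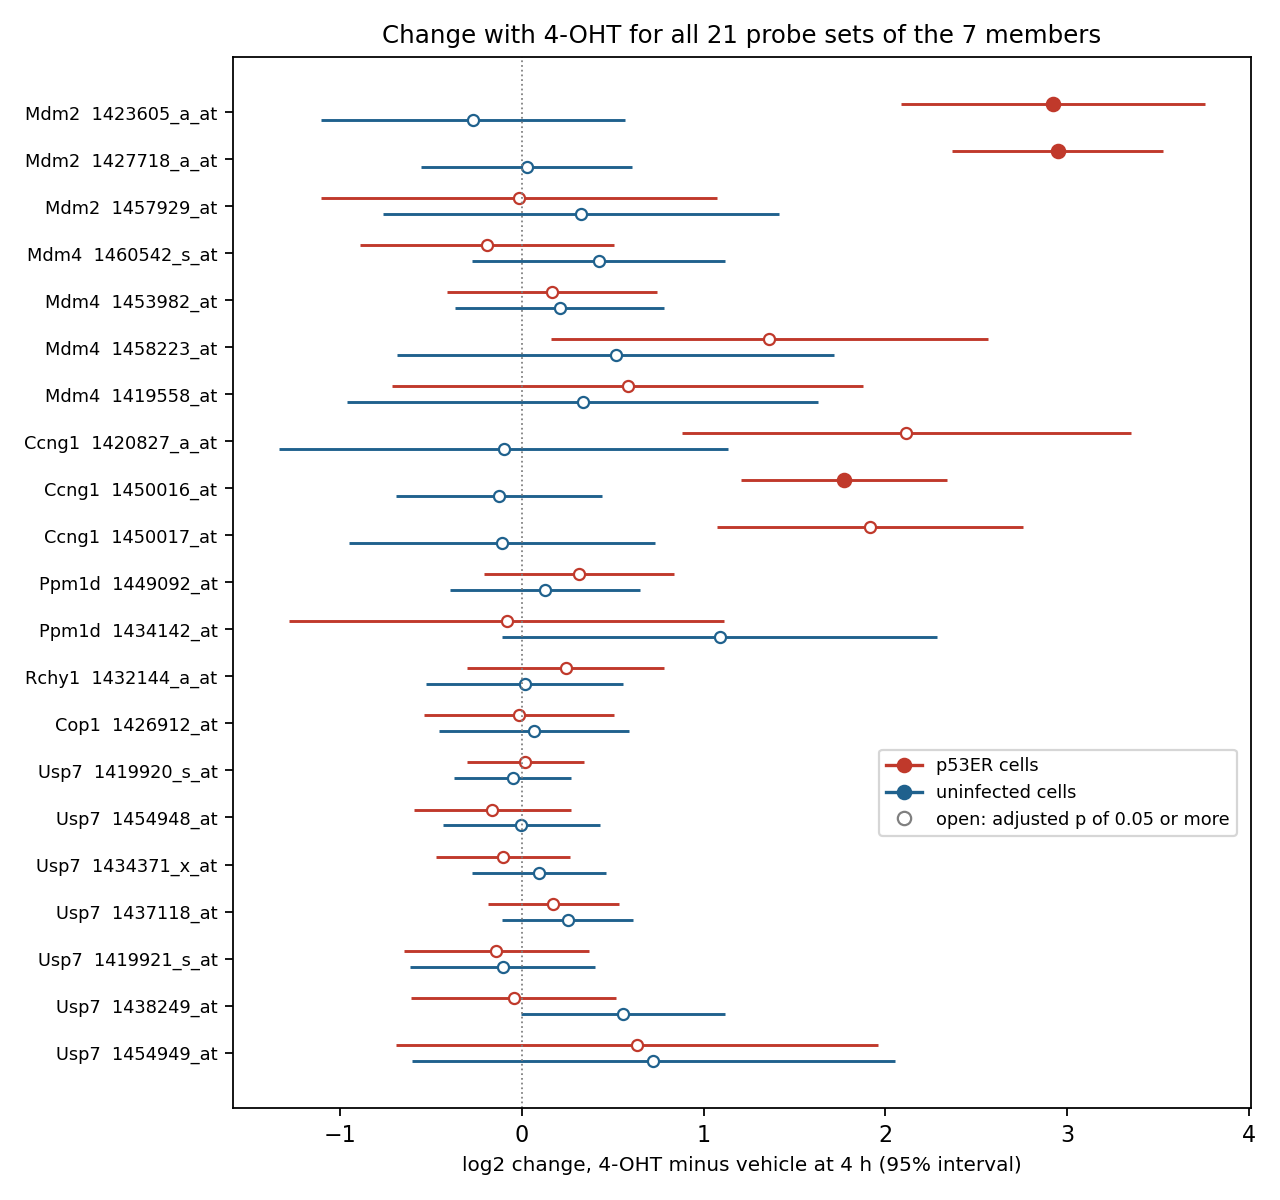
Log2 change of 4-OHT over vehicle at 4 h (horizontal axis) with its 95% interval for all 21 probe sets, in p53ER cells (red, upper) and uninfected cells (blue, lower), with filled points where the adjusted p is under 0.05. Filled points are seen for Mdm2 at 2.92 and 2.95 and for Ccng1 at 1.77, all in p53ER cells.

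Set against 0 h in place of vehicle, with the same 4-OHT arrays, the same 3 probe sets were past the threshold in p53ER cells. On the array 7 passed (0.0155% of those tested), 5 higher and 2 lower, and 24 with the replicate number as a block. The log2 change of 4-OHT over 0 h was +2.91 (SE 0.40, limma adjusted p = 0.0134) and +3.08 (SE 0.28, adjusted p = 2.34e-05) for Mdm2, and +1.90 (SE 0.27, adjusted p = 0.0134) for Ccng1 on 1450016_at. Without 4-OHT replicate 3, or without 0 h replicate 1, 2 or 3, 1 of the 21 passed. On 8 of the 21 all arrays with 4-OHT lay above all at 0 h and on 0 below, against 4.55% and 5.07% of all probe sets. Besides the Mdm2 and Ccng1 probe sets these were the dim 1419558_at of Mdm4 and 1437118_at of Usp7.

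Vehicle alone against 0 h gave no call among the members. In p53ER cells 0 probe sets passed on the array (0%), with 1726 at an unadjusted p under 0.05, of which 1 was a member, 1419921_s_at of Usp7. Mdm2 differed by -0.01 (SE 0.40) and +0.13 (SE 0.28) on its brighter probe sets and by +0.68 (SE 0.52) on the dim 1457929_at, and Ccng1 by -0.35 to +0.13. In uninfected cells 1 passed on the array (0.00222%) and 0 of the 21. There 3007 had an unadjusted p under 0.05, of which 1 was a member, 1453982_at of Mdm4.

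The cell types differed in Mdm2 and Ccng1 when both had 4-OHT. On the array 8 probe sets passed in p53ER over uninfected cells with 4-OHT (0.0178% of those tested), and 3 of the 21. The log2 change was +3.15 (SE 0.40, limma adjusted p = 0.00338) and +3.23 (SE 0.28, adjusted p = 1.05e-05) for Mdm2, and +2.29 (SE 0.27, adjusted p = 0.000711) for Ccng1 on 1450016_at. The count was also 3 without each of these 6 arrays in turn. On 1450017_at Ccng1 differed by +2.30 (SE 0.40, adjusted p = 0.0722) and on 1420827_a_at by +2.45 (SE 0.58, adjusted p = 0.587). All p53ER arrays lay above all uninfected ones on the 6 probe sets of Mdm2 and Ccng1, and below on 1438249_at of Usp7. Over all probe sets 6.02% lay above and 4.13% below.

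Without 4-OHT the cell types showed no call. The brightest Esr1 probe set, which read the fusion, did not pass there either. It differed by +4.34 in log2 units with vehicle (SE 0.86), p53ER minus uninfected. At 0 h the Esr1 difference was +3.80 (SE 0.86, limma adjusted p = 0.935). No call therefore does not mean that the cell types were alike. With vehicle 0 probe sets passed (0%), with 1535 at an unadjusted p under 0.05, of which 1 was a member, the dim 1457929_at of Mdm2. Its signals were 19.0, 16.1 and 23.4 in p53ER cells with vehicle, against 13.3, 2.82 and 2.44 in uninfected cells, and the groups did not overlap. They differed by +1.34 in log2 units (SE 0.52, limma adjusted p = 1.000), p53ER minus uninfected. On the brighter Mdm2 probe sets the differences were -0.04 (SE 0.40) and +0.30 (SE 0.28). With vehicle all p53ER arrays lay above all uninfected ones on 1 of the 21 probe sets and below on 0. Of all 45037, 2012 lay above and 1588 below. At 0 h 0 passed (0%), with 2022 at an unadjusted p under 0.05, of which 1 was a member, 1453982_at of Mdm4. Mdm2 on 1423605_a_at had 170.3, 179.6 and 228 in p53ER cells at 0 h, against 112, 111 and 141 in uninfected cells. They differed by +0.65 in log2 units (SE 0.40, limma adjusted p = 0.999). Those arrays did not overlap, but on 1427718_a_at they did (162, 165 and 134 in p53ER cells against 179.5, 111 and 121). For Ccng1 on 1420827_a_at the signals were 272, 264 and 353 in p53ER cells against 177, 77.5 and 159 in uninfected cells, a change of +1.15 (SE 0.58), and the lowest array was the uninfected replicate 2 that lay apart. All p53ER arrays were above all uninfected ones on 3 of the 21 probe sets, 1 of Mdm2 and 2 of Ccng1, and below on 1, of Mdm4, against 2.76% and 5.47% of all probe sets.

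Ordered by mean log2 signal on 1423605_a_at, Mdm2 stood at 10.52 in p53ER cells with 4-OHT, 7.64 ± 0.53 in uninfected cells with vehicle, 7.61 ± 0.22 in p53ER cells at 0 h and 7.60 ± 1.02 with vehicle. Uninfected cells with 4-OHT followed at 7.37 ± 0.28 and at 0 h at 6.96 ± 0.19 (SD, n = 3 each). Its 3 arrays with 4-OHT in p53ER cells were above all others, and the arrays of neighbouring groups overlapped along the rest of the order. Ccng1 on 1450016_at ran from 9.45 in p53ER cells with 4-OHT through 7.67 with vehicle and 7.55 ± 0.05 at 0 h to 7.34 ± 0.20 in uninfected cells at 0 h, 7.28 ± 0.11 with vehicle and 7.15 ± 0.25 with 4-OHT. Neighbouring groups overlapped after the first there too.

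Mdm4, the relative of Mdm2, did not pass on any of its 4 probe sets. On the brightest, 1460542_s_at, its signals were 45.7, 45.0 and 24.1 in p53ER cells with 4-OHT, against 31.4, 62.7 and 39.3 with vehicle. The groups overlapped, and the log2 change was -0.19 (SE 0.33, 95% interval -0.89 to +0.50). On 1453982_at it was +0.17 (SE 0.28, interval -0.41 to +0.74). The largest value, +1.36 (SE 0.58, limma adjusted p = 1.00), came from 1458223_at in the dimmest 40% of the array, with signals of 26.4, 43.5 and 9.34 with 4-OHT against 3.29, 13.1 and 4.94 with vehicle. Its arrays overlapped, and in uninfected cells its change was +0.52 (SE 0.58).

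On 1453982_at Mdm4 differed between the cell types at 0 h without passing the test. There p53ER cells had 27.2, 24.7 and 21.2 at 0 h, against 50.6, 59.1 and 58.1 in uninfected cells, and the groups did not overlap. The log2 change was -1.08 (SE 0.28, limma adjusted p = 0.935). In uninfected cells the same probe set had 26.5, 32.3 and 30.7 with vehicle at 4 h, so it differed from 0 h by -0.82 (SE 0.28, adjusted p = 0.712). Both differences rest on the same uninfected arrays at 0 h. At 4 h this probe set differed between the cell types by only -0.04 with vehicle and -0.08 with 4-OHT (SE 0.28 each). On 2 of the 21 probe sets, both of Mdm4, all uninfected arrays with vehicle lay below all at 0 h, and on 3, all of Usp7, above, against 9.07% and 3.28% of all probe sets. The brightest Mdm4 probe set differed by +0.25 (SE 0.33) between the cell types at 0 h, which is the opposite sign.

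Ppm1d, the phosphatase Wip1, is a p53 target in other settings but did not pass here. On 1449092_at the signals were 58.0, 48.3 and 73.3 in p53ER cells with 4-OHT, against 38.9, 56.0 and 46.6 with vehicle. The arrays overlapped, and the log2 change was +0.31 (SE 0.25, 95% interval -0.21 to +0.84). In uninfected cells it was +0.13 (SE 0.25). The other probe set, 1434142_at, scattered between replicates, with 41.7, 7.81 and 45.4 with 4-OHT against 24.1, 19.2 and 44.8 with vehicle, a change of -0.08 (SE 0.57). In uninfected cells its change was +1.09 (SE 0.57), which did not pass. Its uninfected signals were 37.4, 29.5 and 28.9 with 4-OHT against 6.70, 6.35 and 38.3 with vehicle, so the arrays overlapped.

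Rchy1 and Cop1, the other ubiquitin ligases, each had 1 bright probe set. Rchy1 had signals of 312, 264 and 466 in p53ER cells with 4-OHT, against 322, 243 and 295 with vehicle, a log2 change of +0.24 (SE 0.26, 95% interval -0.30 to +0.78). Cop1 had 449, 407 and 312 with 4-OHT, against 537, 389 and 282 with vehicle, a change of -0.02 (SE 0.25, interval -0.54 to +0.51). The groups overlapped for both genes. In uninfected cells the changes were +0.02 for Rchy1 and +0.07 for Cop1.

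The replicate number showed in these ligases as well. Cop1 had its lowest array in replicate 3 in all 6 groups, and the mean log2 signal of replicate 3 minus that of replicates 1 and 2 was -0.51. Rchy1 had its highest array in replicate 3 in 5 of 6 groups, with a difference of +0.53, and Mdm2 on 1423605_a_at in 6 of 6, with +0.72. These comparisons of replicate numbers were made after the values were seen and were not tested.

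Usp7, the ubiquitin protease, stayed between 604 and 885 over all 18 arrays on its brightest probe set. On that probe set, 1419920_s_at, its signals were 777, 724 and 751 in p53ER cells with 4-OHT, against 751, 766 and 705 with vehicle, a log2 change of +0.02 (SE 0.15, 95% interval -0.30 to +0.34). In uninfected cells they were 731, 814 and 782 with 4-OHT, against 712, 823 and 885 with vehicle, a change of -0.05 (SE 0.15). The other 6 probe sets differed by -0.16 to +0.63 in p53ER cells, and none passed. On 1437118_at the arrays with 4-OHT (160.4, 166 and 156) lay above those with vehicle (141, 129.9 and 156) in p53ER cells, although the closest 2 were nearly equal, and the change was +0.17 (SE 0.17). In uninfected cells it was +0.25 (SE 0.17). On 1438249_at the uninfected arrays with 4-OHT (51.2, 50.7 and 47.3) lay above those with vehicle (30.6, 29.9 and 37.4). The change there was +0.56 (SE 0.27), which did not pass, against -0.04 (SE 0.27) in p53ER cells.

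**Figure D4:**
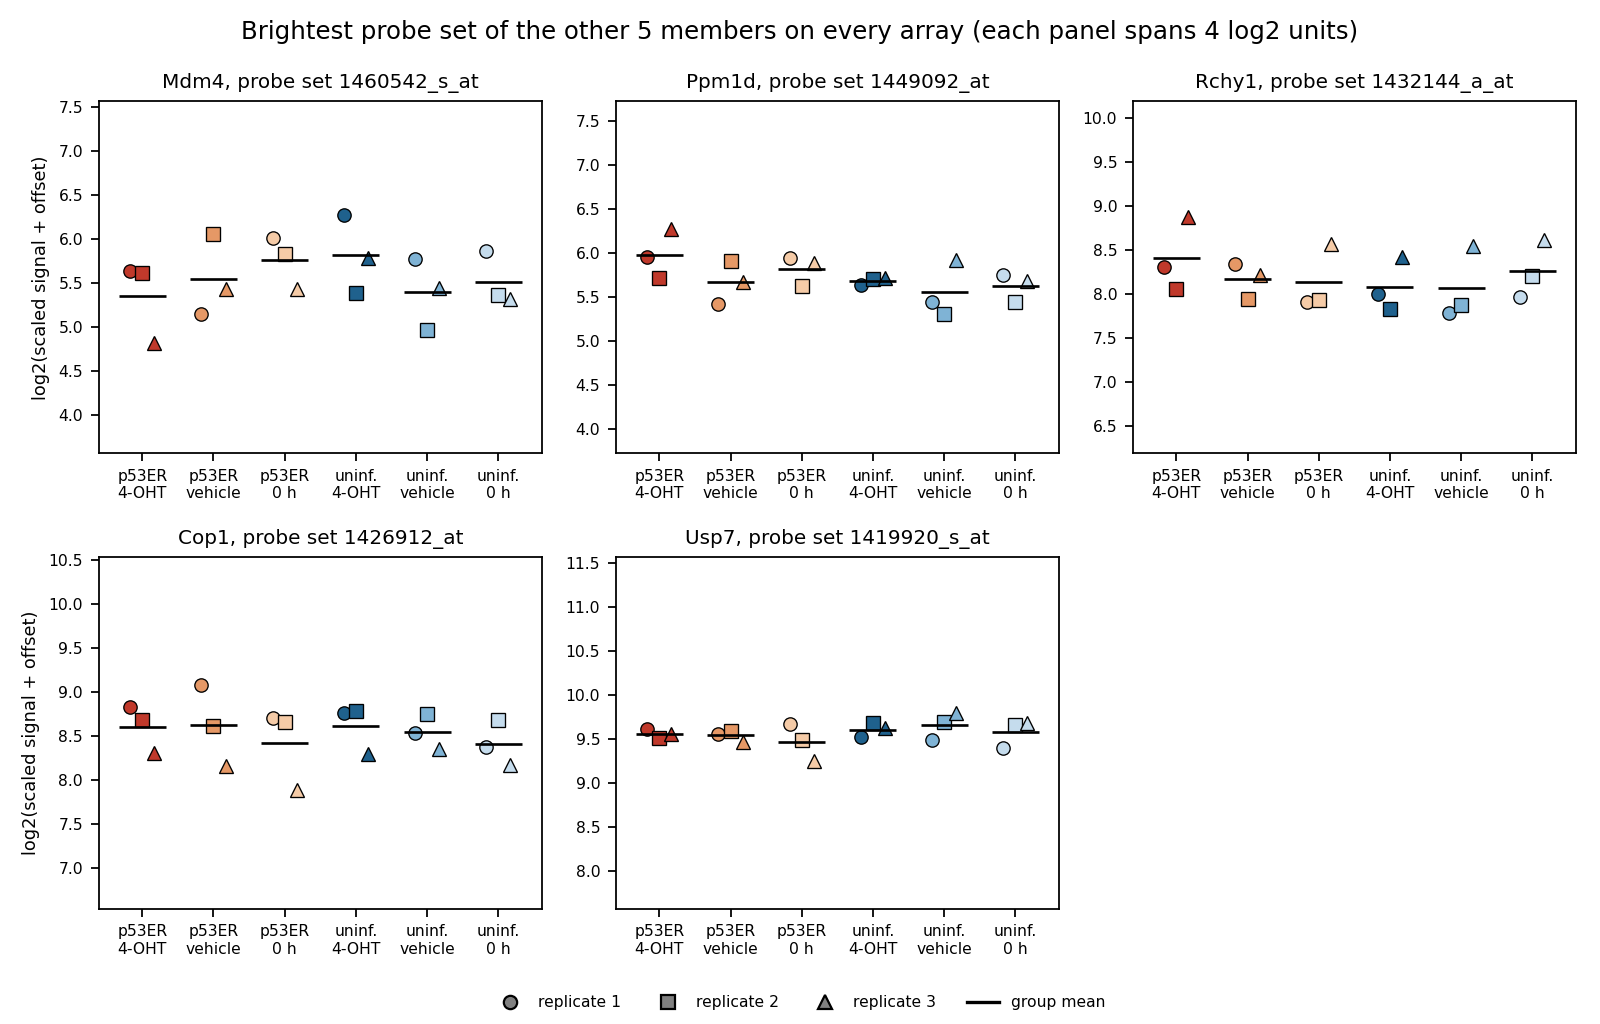
Log2 of the scaled signal plus an offset for the brightest probe set of Mdm4, Ppm1d, Rchy1, Cop1 and Usp7 on all 18 arrays, by group, with 1 point per array and a bar for the group mean, every panel spanning 4 log2 units. No group stands apart in any panel, and the triangles of replicate 3 lie lowest in every group for Cop1.

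Across the 18 arrays the genes most like Mdm2, each read by its brightest probe set, were Cdkn1a (Pearson r 0.948), Pmaip1 (0.927), Scarf1 (0.917), Trp53inp1 (0.915) and Ccng1 (0.905). For Ccng1 they were Trp53inp1 (0.967), Mdm2 (0.905), Cdkn1a (0.903), Pmaip1 (0.902) and Scarf1 (0.885). The same 4 genes besides the pair itself were on both lists, out of 18193 genes compared. Cdkn1a encodes the cell cycle inhibitor p21, Trp53inp1 a p53-induced nuclear protein and Scarf1 a scavenger receptor. Scarf1 differed by +0.77 with 4-OHT over vehicle in p53ER cells (SE 0.25) and did not pass (limma adjusted p = 1.00). The arrays share groups and replicate numbers, and the 3 p53ER arrays with 4-OHT were the highest for both Mdm2 and Ccng1, so these values are descriptions. Among the other members r with Mdm2 was 0.60 for Ppm1d, 0.43 for Rchy1, -0.03 for Usp7, -0.13 for Cop1 and -0.38 for Mdm4.

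Genes around the members were read by the brightest probe set of each. Read that way, the brighter 60% of genes had a median log2 change of -0.01 with 4-OHT over vehicle in p53ER cells. Of 20 further ubiquitin ligases and proteases of p53 on the array, 0 passed in either direction in p53ER cells with 4-OHT over vehicle, and 0 at an unadjusted p under 0.05. Their median log2 change was -0.04, against +0.03 over all probe sets, and the largest values were Ube3a, the E6-associated ligase (+0.82, SE 0.70), and Trim28, a corepressor that binds Mdm2 (-0.36, SE 0.20). Of 22 genes listed as regulators of Mdm2 and Mdm4, such as ribosomal proteins and kinases, 0 passed. The median log2 change was -0.11, with 5 of 22 positive, and 0 had an unadjusted p under 0.05. These figures include Mrpl23 (-0.23, SE 0.19), a mitochondrial ribosomal protein taken up through a synonym where Rpl23 was meant. The largest values were Cdkn2a, whose Arf product inhibits Mdm2 (-0.60, SE 0.31), and Npm1, which encodes nucleophosmin (+0.47, SE 0.38).

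Of 13 damage kinases and substrates that Ppm1d opposes, 0 passed and 0 had an unadjusted p under 0.05, with a median of -0.02. Ung, a uracil glycosylase, differed most (-0.55, SE 0.39), followed by Atr, a damage kinase (+0.54, SE 0.50). For these 3 lists 0 genes also passed in uninfected cells, in the difference of the 4-OHT effects, against 0 h and between cell types with 4-OHT. At an unadjusted p under 0.05 at most 2 of a list did in any of those comparisons.

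Of 29 other p53 targets on the array 1 passed with 4-OHT over vehicle in p53ER cells, Pmaip1 (+3.38, SE 0.51, limma adjusted p = 0.0233), and 0 were lower. Their median log2 change was +0.71, with 24 of 29 positive, against +0.03 over all probe sets and -0.01 over the brighter 60% of genes. Of the 29, 14 had an unadjusted p under 0.05, against 1844 of all 45037 probe sets. In a fit of the brighter 60% of genes, 352 of 10916 did. In uninfected cells the median was -0.00 with 14 of 29 positive, and 0 passed or had an unadjusted p under 0.05. With the replicate number as a block 3 passed, adding Cdkn1a (+2.19, adjusted p = 0.0026) and Phlda3, a brake on Akt signalling (+1.43, adjusted p = 0.00426). In p53ER over uninfected cells with 4-OHT 2 passed, Pmaip1 (+3.63) and Phlda3 (+2.24, limma adjusted p = 0.000175). Trp53inp1 differed by +2.60 (SE 0.64, adjusted p = 0.758). Beside the list's median of +0.71, Mdm2 stood at +2.92 and Ccng1 at +2.11 on their brightest probe sets, and Mdm4, Ppm1d, Rchy1, Cop1 and Usp7 at -0.19 to +0.31. That Ccng1 probe set did not pass (SE 0.58, limma adjusted p = 0.942), and the Ccng1 probe set that passed stood at +1.77.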

How the data were processed

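The authors deposited linear signal intensities made with MAS5, a tool named in the submitters' processing notes without version or target value. There were 45101 probe sets on 18 arrays, of which 64 controls were left out. Arrays were brought to a shared 2% trimmed mean of 82.1 (a 3.13-fold range before scaling), and log2(signal + 4.11) was used, the offset being 5% of that mean. Fold changes are on that scale and understate dim genes. Probe sets were named by the platform annotation given here (34958 with 1 gene, 932 with several, 9211 with none listed). All probe sets were tested, with no filter on dim ones, and a gene with several was read probe set by probe set.

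With limma 3.58.1 in R 4.3.3, the means of the 6 groups were fitted on the 18 arrays together, leaving 12 residual degrees of freedom, with a trended, robust variance prior. In each of 9 comparisons two-sided p-values were adjusted by Benjamini-Hochberg over 45037 probe sets. With 3 arrays against 3 the smallest exact permutation p is 0.1, so single probe sets rest on the shared variance, and the number of arrays limits precision. The pipeline was tested on simulated data. The members, lists and alternatives were chosen with earlier results of these data known, so the rises of Mdm2 and Ccng1 are no independent support for those results. Named genes were all probe sets of the members, the 5 genes most correlated with Mdm2 and with Ccng1, and in each list every gene that passed, or otherwise the 2 with the largest change. Esr1, Mrpl23 and some cell type markers were named besides.

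Deviations from the group means correlated above 0.1 between arrays of the same replicate number in every pair for 4-OHT over vehicle in p53ER cells (r 0.15 to 0.31) and uninfected cells (0.14 to 0.41), and for 4-OHT over 0 h in p53ER cells (0.15 to 0.30), so the number was taken to pair arrays there. In the other 6 comparisons some pair was below 0.1. The alternatives were quantile normalization, no scaling, no offset, a larger offset of 20% (16.4), the upper 60% of probe sets, 1 probe set per gene, the replicate number as a block (leaving 10 degrees of freedom), array weights, a prior on the variance with neither trend nor robustness, only the groups compared, leaving out the 3 arrays that lay apart, and leaving out each array in turn. Other tools were matplotlib 3.10.9, statmod 1.5.0 and data.table (version 1.17.8). Promoter windows are from RefSeq, GRCm38.p6.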

Additional observations from a re-analysis of the deposited data

Results flagged for a closer look

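The effect of 4-OHT on Mdm2, read by probe set 1427718_a_at, differed between p53ER and uninfected cells by a test of the difference itself. It was +2.92 on the log2 scale (SE 0.39, limma adjusted p = 0.0158), with a change of +2.95 in p53ER cells and +0.03 in uninfected cells. All 3 p53ER pairs of the same replicate number rose by 2.74 or more, and the 3 uninfected pairs ranged from -0.13 to +0.14. The call was lost in 13 of 22 alternatives, among them the omission of any 1 of the 6 uninfected arrays with 4-OHT or vehicle, no scaling, the other variance prior, and the omission of the 3 arrays that lay apart.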

How the results depend on the processing

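Members past the threshold in p53ER cells with 4-OHT over vehicle numbered 3 of 21. They were 2 with no scaling or no offset, 1 of 7 with 1 probe set per gene, 1 with a variance prior without trend and robustness, 1 without the 3 arrays that lay apart, 0 with only the arrays of the groups compared, and 1 to 4 with 1 array left out. Over the array 4 probe sets passed, against 11 with the replicate block, 9 without p53ER vehicle replicate 3, 2 with no offset, without 4-OHT replicate 2 or without vehicle replicate 2, 2 with 1 probe set per gene, 1 with that prior or without 4-OHT replicate 3, and 0 with only the groups compared. The difference of the 4-OHT effects called 1 member, but 2 with the replicate block (3 over the array), the second being Mdm2 1423605_a_at (limma adjusted p = 0.00208), 1 with a larger offset (2 over the array) and 0 with no scaling, 1 probe set per gene, that prior, the 3 arrays left out or only the groups compared, and 0 to 3 with 1 array left out. Against 0 h 3 members passed, 0 with no scaling, 1 with 1 probe set per gene, 1 with that prior, and 1 to 3 with 1 array left out. With only the groups compared 2 members passed, and 4 with array weights or without the 3 arrays. Of all probe sets 7 passed there, against 24 with the replicate block, 13 with array weights, 0 to 4 with no scaling, no offset, quantile normalization, the upper 60%, 1 probe set per gene, that prior or only the groups compared, and 1 to 5 with 1 array left out. Between cell types with 4-OHT 3 members passed, 2 with no scaling and 1 with 1 probe set per gene. With quantile normalization, a larger offset or array weights 4 did, and 5 without the 3 arrays or with only the groups compared. Of all probe sets 8 passed there, against 24 with the replicate block, 22 with array weights, 19 without the 3 arrays, 14 with a larger offset, 5 with no offset and 5 to 8 with 1 array left out. In uninfected cells with vehicle over 0 h 1 of all probe sets passed, and 0 with quantile normalization, no scaling, no offset, the upper 60%, 1 probe set per gene, array weights or without the 3 arrays. The cause was not tested. The block changed no other count of members. With no scaling the median log2 value of all probe sets was -0.17 for the difference of the effects, against +0.02 with scaling. It was -0.26 against -0.01 for 4-OHT over 0 h, -0.24 against -0.05 for p53ER vehicle over 0 h, +0.15 against +0.01 for uninfected cells with 4-OHT over vehicle, and between cell types +0.37 against -0.03 at 0 h and +0.13 against +0.02 with vehicle. No scaling gave Usp7 -0.04 on its brightest probe set in place of +0.02. Under all 17 alternatives tried for Mdm2 1423605_a_at, the 4-OHT change stayed between +2.50 and +3.49, and Ccng1 1450016_at between +1.48 and +2.17 over 16. No call changed its sign.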
